A study of Mus musculus with 6 samples.

Results

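The TNF ligand and receptor superfamily was examined in RNA sequencing of whole optic nerves. Members were the genes whose symbol starts with Tnfsf or Tnfrsf, together with Tnf, Lta, Ltb, Ltbr, Fas, Fasl, Cd27, Cd40, Cd40lg, Cd70, Eda and Edar. This rule found 42 of the 25755 genes in the table, of which 17 are ligands, 24 are receptors and 1 is the antisense RNA Tnfsf13os. The ligand genes Tnfsf4 and Tnfsf11 and 1 receptor gene were not analysed here. The nerves came from 3 sham mice (mice 1 to 3) and 3 ON-CR mice (mice 4 to 6), all of genotype Nf1flox/flox; hGFAP-Cre. Their Cre is under the human GFAP promoter and removes Nf1 from neuroglial progenitors, so both groups carry the same deletion and differ by label only in surgery. Optic nerve crush (ON-CR) was bilateral at 6 weeks of age, sham mice had the incision without the crush, and nerves were taken at 12 weeks, which the labels give as 3 months. The comparison asks how the injured nerve differs at the age at which the study examined it for glioma.

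TNF superfamily ligands are mostly trimeric membrane proteins that can be shed, and they bind receptors with cysteine-rich repeats on neighbouring cells. Receptors with a cytoplasmic death domain, such as Tnfrsf1a and Fas, can recruit adaptors that start either NF-kB signalling or cell death. Receptors without one bind TRAF adaptors directly, and decoy receptors bind ligand without passing on a death signal. In the nervous system, microglia and macrophages are a well-known source of TNF, and many other members carry signals between T cells, B cells and antigen-presenting cells.

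Values are read counts per gene normalized by the authors. In each library 1 read corresponded to a value between 0.885 and 1.06, depth was 17414091 to 23621006 estimated reads, and the floor of 3 reads corresponded to a value of 2.66 to 3.18. The libraries also differed in ways that bear on every result below. Surgery and sex cannot be told apart, because Xist was at 2.14 to 30.9 in the sham libraries and at 2708 to 6357 in the ON-CR libraries. The Y-linked Ddx3y was at 1291 to 1645 in sham mice and at 976, 4.19 and 0 in ON-CR mice 4, 5 and 6. The library of ON-CR mouse 4 thus held both transcripts. Of the 10 markers of microglia and macrophages, Cd68, C1qa and Aif1 rose after ON-CR (limma, adjusted p = 0.00128, 0.00924 and 0.0260), and none of the 10 was at 0. Tmem119 and P2ry12, markers of resting microglia, had log2 fold changes of -0.27 and -0.35 (limma adjusted p = 0.351 and 0.364), and for Tmem119 every ON-CR mouse was below every sham mouse. The summed value of all 10 ranged from 12369 to 15714 in sham and from 15672 to 24476 in ON-CR mice. Of 7 oligodendrocyte markers 5 fell, and the list summed to between 1010000 and 1549200 in sham and between 489570 and 546690 in ON-CR mice. By the same adjusted test 0.971% of all genes were higher and 1.13% lower. The glial markers of an optic nerve were all detected, among them Mbp and Gfap, and none was at 0. Markers of airway epithelium summed to 7893 in sham mouse 3 and to 5466 and 6205 in ON-CR mice 5 and 6, against at most 128 in the other 3 libraries. Most of the high sums was 1 gene, Bpifa1, at 7568 in sham mouse 3 and at 4579 and 5894 in ON-CR mice 5 and 6. Bpifb1 and Sec14l3 were also highest in the same libraries. Foxj1, of the same list, was at 77.9 to 119 in all 6 libraries. RNA of whole nerves cannot tell fewer cells of a type from less RNA per cell, and the part of cell composition in the results below was not tested.

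Most members lay higher in the injured nerves, by an amount that for most of them was within the spread between mice. Of the 42 members, 30 (71.4%) had a log2 fold change above 0, against 52.8% of all genes tested. The median log2 fold change was 0.61 over the members and 0.03 over all genes. It was 0.75 over the 17 ligands and 0.54 over the 24 receptors. Both the member and the ligand median leaned on ON-CR mouse 6. Without that mouse the ligand median was the 0.44 of Tnfsf10, and the member median lay between Tnfrsf1a at 0.36 and Tnfrsf21 at 0.40. The plot of values by mouse shows that levels ran from a few reads (Cd40lg, Tnf) to between 1452 and 2607 (Tnfrsf1a).

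**Figure D1:**
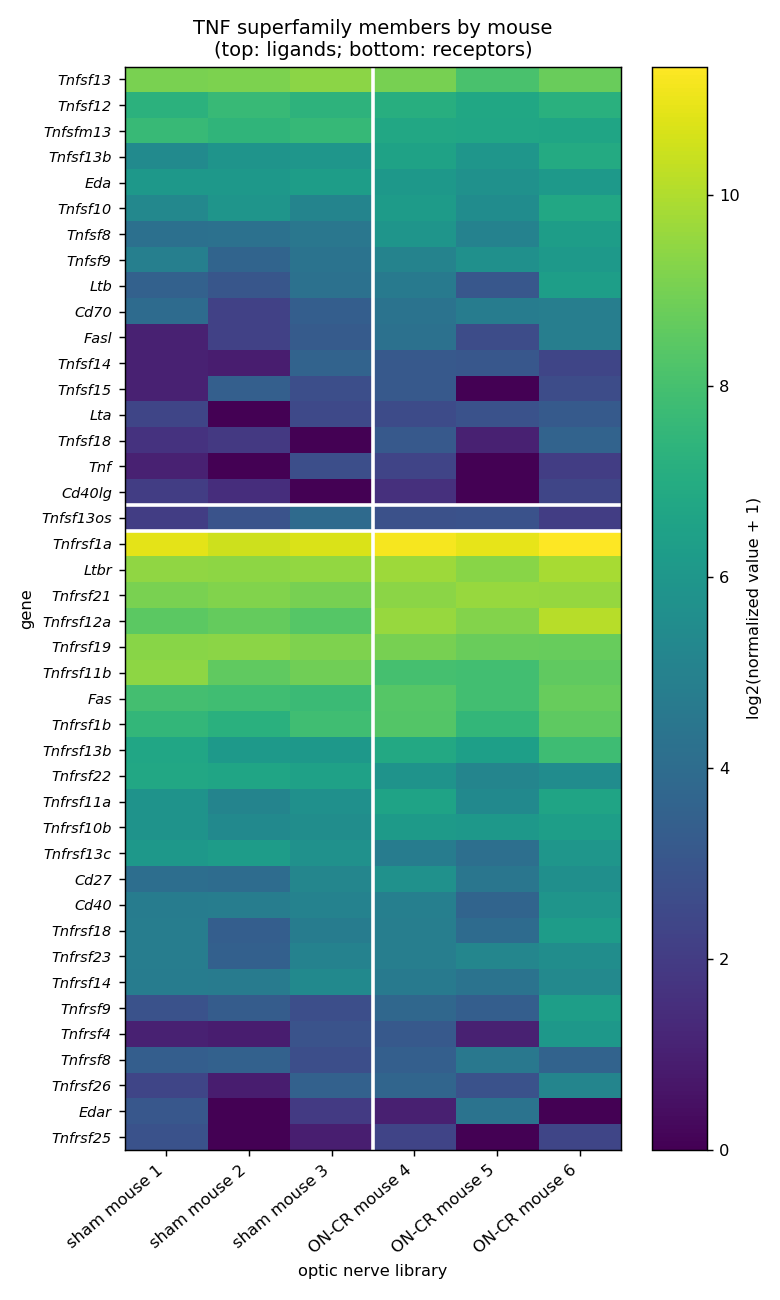
Heat map of log2(normalized value + 1) for the 42 members (rows, ligands above and receptors below, ordered by mean) in each of the 6 libraries (columns). Tnfrsf1a was the brightest row in every mouse, and ON-CR mouse 6 held the highest value of all 6 mice in 24 members. The share of all genes highest in that mouse is not given here.

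After adjustment over all genes, 2 members passed the test. Tnfrsf12a, the receptor of the cytokine TWEAK, rose, and Tnfsfm13, a fusion transcript of the TWEAK and APRIL genes, fell. That is 1 of 42 higher (2.38%) against 0.971% of all genes, and 1 of 42 lower (2.38%) against 1.13% of all genes, so the share called was close to the background in both directions. With library size, upper-quartile or TMM scaling, or a pseudocount of 2, 1 member was higher and 0 were lower. Library size scaling moved the median of all genes to 0.15, and turned the balance of all genes called from 250 higher and 290 lower to 421 and 195. At an unadjusted p at or under 0.05 by limma, 11 members (26.2%) were higher against a background of 7.37%, and 6 (14.3%) were lower against 8.23%. With library size scaling these 2 counts were 14 and 4. Without ON-CR mouse 5 the 11 became 21, and without ON-CR mouse 6 they became 3. The share of all genes at the unadjusted p in those settings is not given here. By the adjusted test, members called higher went from 1 to 2 without mouse 5 and to 0 without mouse 6. Over all genes, those called higher by that test went from 250 to 489 and to 39. The groups did not overlap in 9 members with higher ON-CR values (21.4%, background 10.5%) and in 5 with lower ones (11.9%, background 11.0%).

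**Figure D2:**
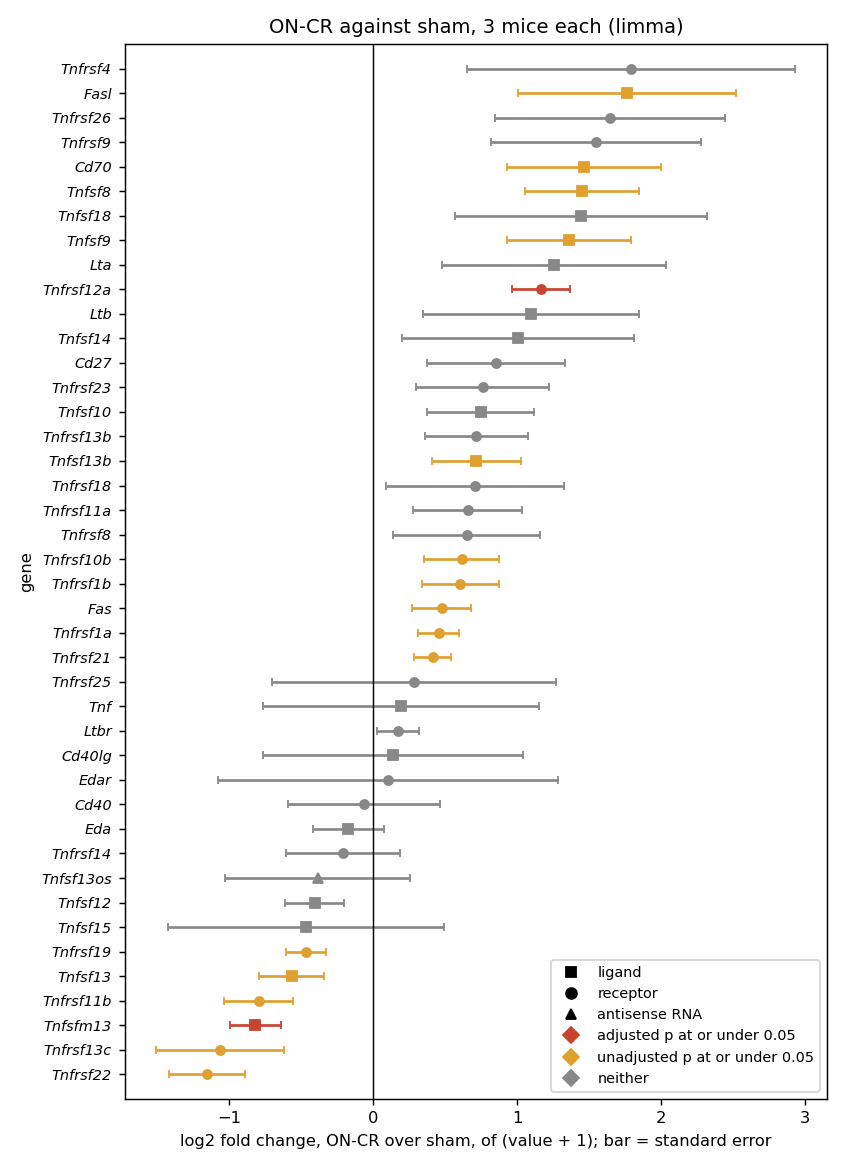
Log2 fold change of ON-CR over sham, of value + 1, for each member (squares, ligands; circles, receptors; triangle, antisense RNA), with bars for the standard error from limma and colour for the adjusted or unadjusted p. Tnfrsf12a at 1.17 and Tnfsfm13 at -0.82 are the 2 members with an adjusted p at or under 0.05, and many members with larger estimates have wider bars.

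Tnfrsf12a, also known as Fn14, is a small receptor that binds TRAFs and is known to be induced in injured tissue. The gene lies on chromosome 17 of GRCm38 from 23675445 to 23677468 on the minus strand. Tnfrsf12a was at 358, 401 and 326 in sham mice 1, 2 and 3 and at 783, 614 and 1105 in ON-CR mice 4, 5 and 6. Every ON-CR mouse was above every sham mouse, and mouse 6 was the highest. The mean rose 2.31-fold, from 362 ± 37.7 to 834 ± 249 (SD, n = 3 each), with a log2 fold change of 1.17 (standard error 0.20, limma adjusted p = 0.0190). The call held in 10 of 14 alternative settings, with log2 fold changes from 0.94 to 1.37 and adjusted p from 0.00281 to 0.0906. It was lost when sham mouse 1, 2 or 3 was left out (adjusted p = 0.0828, 0.0759 and 0.0868) and without ON-CR mouse 6 (0.0906). Per kilobase of exon, Tnfrsf12a was the third of the 42 members by mean level over the 6 mice, at 309, after Tnfrsf1a at 768 and Ltbr at 320.1.

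The stretch directly upstream of this receptor's annotated first exon is shown because it is the one member that rose. It covers 231 bases at chr17:23677469-23677699, minus strand, from RefSeq promoters of GRCm38.p6, with GC boxes (GGGCGG on either strand) in capitals.
Tnfrsf12a: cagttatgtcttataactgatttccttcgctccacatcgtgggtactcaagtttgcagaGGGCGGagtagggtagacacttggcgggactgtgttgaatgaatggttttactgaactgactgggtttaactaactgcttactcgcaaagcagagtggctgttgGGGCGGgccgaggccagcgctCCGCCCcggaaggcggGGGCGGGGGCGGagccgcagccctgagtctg
It held 5 GC boxes, 4 on the strand shown and 1 on the other, and none overlapped another. In windows of the same length, 9844 of 32851 RefSeq promoters held at least 1 and 1.36% held 5 or more. This motif was chosen after the values were seen, and a match is a description of the letters only.

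Tnfsf12 encodes TWEAK, the ligand of Tnfrsf12a, and Tnfsf13 encodes APRIL, a ligand that supports plasma cells. The 2 genes lie next to each other on the minus strand of chromosome 11, and Tnfsfm13 (GRCm38, 69682577 to 69696098) joins exons of both, a fusion known as TWE-PRIL. By GENCODE M21, Tnfsfm13 shares 731 exonic bases with Tnfsf12 (48.3% of that gene's exons) and 983 with Tnfsf13 (60.0%). Counted from its first base, the exons of Tnfsfm13 start at 0, where those of Tnfsf12 start at 249. They end at 13521, where those of Tnfsf13 end at 13252, so both outer stretches lie outside the parent exons. The fusion is also set apart by the junction between its exon 7 of 13, at chr11:69686957-69687091, and the next one, at chr11:69685029-69685130. It is printed here as 30 bases on either side, 5′ to 3′ on the minus strand, with the Tnfsf12 side in capitals.
Tnfsfm13 junction: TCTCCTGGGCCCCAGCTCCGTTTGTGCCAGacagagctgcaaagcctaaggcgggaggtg
This run was found in 0 of 4 annotated transcripts of Tnfsf12 and Tnfsf13. Reads within the shared exons could have come from the fusion or from a parent gene, and the values of the 3 genes were not whole reads in every library, so their split between the 3 is uncertain.

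**Figure D3:**
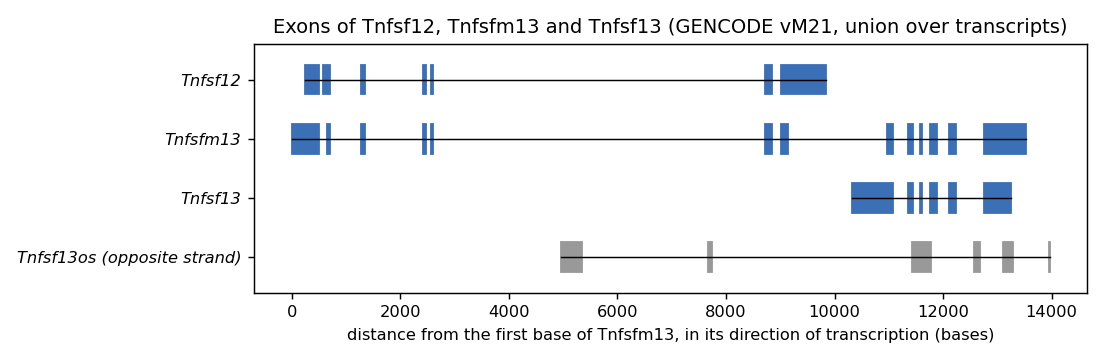
Exons (boxes, union over GENCODE M21 transcripts) of Tnfsf12, Tnfsfm13, Tnfsf13 and, on the opposite strand, Tnfsf13os, against the distance in bases from the first base of Tnfsfm13. Tnfsfm13 shares 731 exonic bases with Tnfsf12 and 983 with Tnfsf13.

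Tnfsfm13 was at 199, 170.1 and 191 in sham mice 1, 2 and 3 and at 111, 103 and 102 in ON-CR mice 4, 5 and 6. The groups were well apart and the ON-CR mice lay close together. The mean fell 1.77-fold, from 187 ± 14.9 to 105 ± 5.11 (SD, n = 3 each), with a log2 fold change of -0.82 (standard error 0.18, limma adjusted p = 0.0495). This value was at the threshold, and the call held in 4 of 14 alternative settings, with adjusted p from 0.0430 to 0.191. It was lost when any 1 mouse was left out, with adjusted p from 0.0599 without ON-CR mouse 5 to 0.191 without ON-CR mouse 6.

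The parent genes also had lower values in the injured nerves, without passing the test. Tnfsf12 was at 154, 201 and 160.5 in sham mice 1, 2 and 3 and at 136, 107 and 146 in ON-CR mice 4, 5 and 6. Tnfsf13 was at 536, 552 and 670 in the sham mice and at 522, 268 and 435 in the ON-CR mice. In both genes every ON-CR mouse was below every sham mouse, while the log2 fold changes were -0.41 and -0.57 (limma adjusted p = 0.368 and 0.259). Without ON-CR mouse 5 the log2 fold change of Tnfsf13 was -0.29. The sum of the 3 genes, which does not depend on how reads were split between them, was 944 ± 68.5 (SD, n = 3) in sham and 643 ± 149 (SD, n = 3) after ON-CR. The fusion took 18.4% to 22.4% of that sum in sham and 14.5% to 21.5% in ON-CR mice, and these ranges overlapped. In these libraries the TWEAK receptor thus had higher, and the ligand gene lower, values in every ON-CR mouse than in any sham mouse. Tnfsf13os, an antisense RNA that overlaps exons of Tnfsf13 and Tnfsfm13, had values of 3.12 to 14.1, and the SMARTer Ultra Low RNA kit named in the labels does not mark strand.

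**Figure D4:**
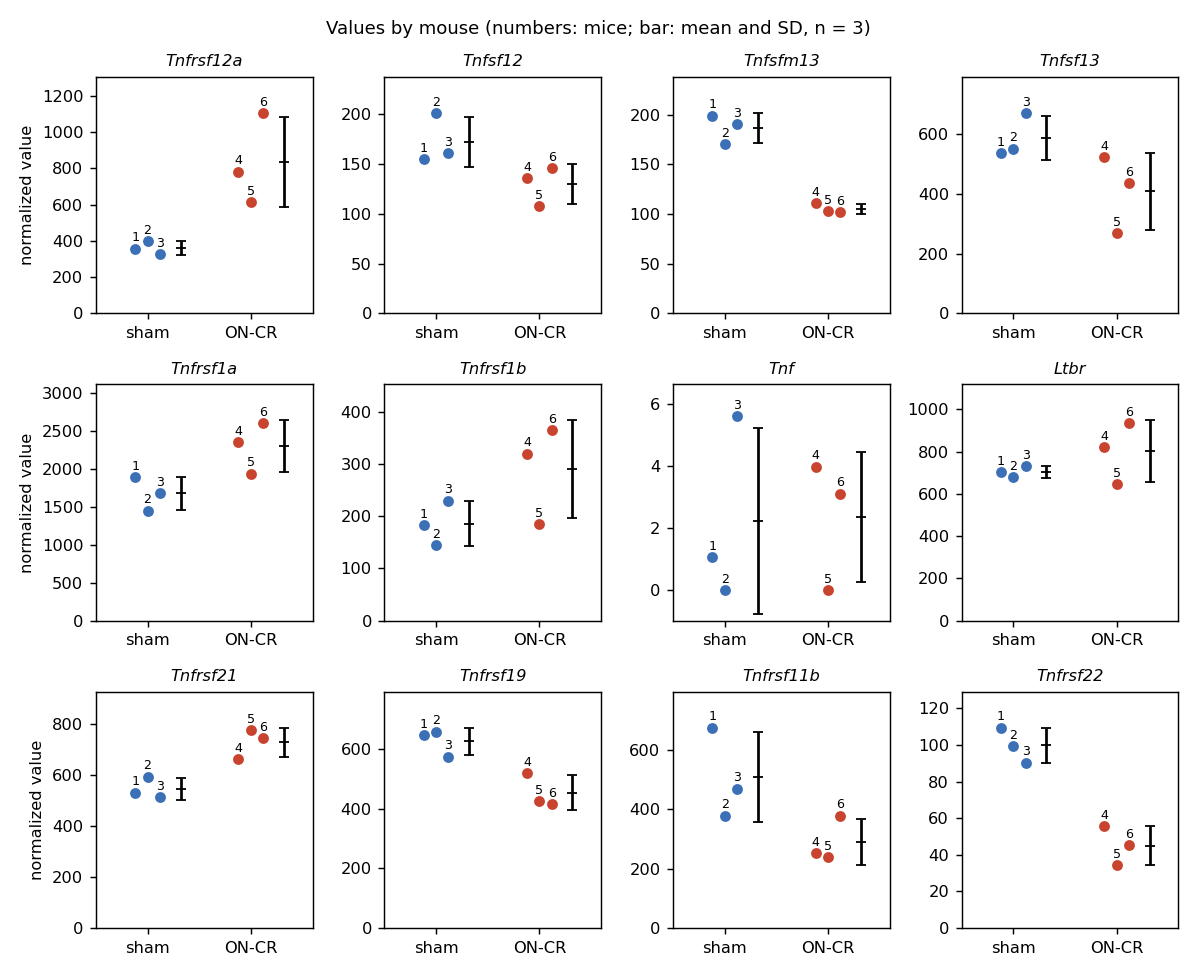
Normalized values of 12 members by mouse (points, numbered by mouse) in sham (blue) and ON-CR (red) nerves, with the mean and SD of 3 mice beside them and a linear axis of its own for each gene. Tnfrsf12a, Tnfrsf1a and Tnfrsf21 lay higher, and Tnfsf12, Tnfsfm13, Tnfsf13, Tnfrsf19 and Tnfrsf22 lower, in every ON-CR mouse than in any sham mouse. So did 10.5% of all genes (higher) and 11.0% (lower), and of the genes shown only Tnfrsf12a and Tnfsfm13 passed the adjusted test. Tnf stayed between 0 and 5.63.

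BAFF, the product of Tnfsf13b, keeps B cells alive and shares receptors with APRIL. Tnfsf13b was at 42.4, 58.4 and 61.0 in sham mice 1, 2 and 3 and at 91.7, 60.8 and 123 in ON-CR mice 4, 5 and 6. ON-CR mouse 5 lay within the sham values, and the log2 fold change of 0.71 did not pass (limma adjusted p = 0.299). Tnfrsf13c, the BAFF receptor of mature B cells, was at 64.7, 77.0 and 52.6 in sham mice and at 25.9, 16.8 and 62.3 in ON-CR mice. Here ON-CR mice 4 and 5 were below all sham mice and ON-CR mouse 6 was among them, with a log2 fold change of -1.06 (limma adjusted p = 0.285). Tnfrsf13b, the TACI receptor of BAFF and APRIL, was at 104, 68.2 and 65.7 in sham mice and at 113, 82.8 and 224 in ON-CR mice. For TACI the groups overlapped and mouse 6 was far above the rest, with a log2 fold change of 0.72 (limma adjusted p = 0.368) and of 0.31 without that mouse. The 8 markers of B cells and plasma cells summed to 549 to 1085 in sham mice, to 656 and 345 in ON-CR mice 4 and 5 and to 14960 in ON-CR mouse 6. Of these markers Pax5 was at 0 in 3 libraries and Ms4a1 in 1, and none of the 8 passed the test. The part of this mouse's B cell and plasma cell transcripts in these values was not tested.

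TNF itself was barely detected in either group, whereas its receptors were abundant. Tnf was at 1.06, 0 and 5.63 in sham mice 1, 2 and 3 and at 3.99, 0 and 3.12 in ON-CR mice 4, 5 and 6, which is 0 to 6 reads. Only sham mouse 3 and ON-CR mice 4 and 6 reached 3 reads, so a change in Tnf was not detectable at this depth (log2 fold change 0.20, standard error 0.96, limma adjusted p = 0.948). Lta, which encodes lymphotoxin alpha, was at 4.24, 0 and 4.70 in sham mice and at 4.99, 6.29 and 8.31 in ON-CR mice. These groups did not overlap, but at 0 to 8 reads the log2 fold change of 1.26 had a standard error of 0.78 (limma adjusted p = 0.484) and was 0.44 without sham mouse 2. Ltb, the membrane-bound lymphotoxin beta of lymphocytes, was at 10.6, 7.08 and 17.8 in sham mice and at 23.9, 7.34 and 82.0 in ON-CR mice. Mouse 6 alone carried most of that difference, since the log2 fold change of 1.10 became 0.25 without it (limma adjusted p = 0.531 and 0.909).

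Tnfrsf1a, the broadly expressed death-domain receptor of TNF, had the highest level of the family at 768 per kilobase of exon, against 62.3 for Tnfrsf1b and 1.40 for Tnf. Tnfrsf1a was at 1896, 1452 and 1683 in sham mice 1, 2 and 3 and at 2358, 1937 and 2607 in ON-CR mice 4, 5 and 6. The groups did not overlap, although sham mouse 1 and ON-CR mouse 5 were close, and the log2 fold change was 0.45 (standard error 0.14, limma adjusted p = 0.155). Tnfrsf1b, the receptor without a death domain that is found on microglia and lymphocytes, was at 184, 144 and 230.1 in sham mice and at 320.1, 185 and 364 in ON-CR mice. ON-CR mouse 5 lay within the sham values, and the log2 fold change was 0.60 (standard error 0.27, limma adjusted p = 0.315). Neither receptor was called in any of the 14 settings, in which the adjusted p ran from 0.0550 to 0.480 for Tnfrsf1a and from 0.0513 to 0.652 for Tnfrsf1b. Ltbr, the lymphotoxin beta receptor of stromal and myeloid cells, was at 704, 678 and 732 in sham mice and at 824, 648 and 937 in ON-CR mice. It overlapped between groups, with a log2 fold change of 0.17 (standard error 0.15, limma adjusted p = 0.633).

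The 6 death-domain receptors had log2 fold changes above 0, as did 52.8% of all genes, with a median of 0.43, and 0 passed the adjusted test, which 0.971% of all genes passed as higher and 1.13% as lower. The signs of the sparsely detected Edar and Tnfrsf25 turned in some settings, Edar to -1.17 without ON-CR mouse 5 and Tnfrsf25 to -0.36 without sham mouse 2. Fas, which triggers death on binding Fas ligand, was at 250.4, 229 and 212 in sham mice 1, 2 and 3 and at 326, 239 and 421 in ON-CR mice 4, 5 and 6. ON-CR mouse 5 was below sham mouse 1, and the log2 fold change of 0.47 did not pass (limma adjusted p = 0.308). Fasl, the ligand made by cytotoxic lymphocytes, was at 1.06, 3.54 and 8.45 in sham mice and at 17.9, 5.24 and 28.0 in ON-CR mice. ON-CR mice 4 and 6 were above all sham mice and ON-CR mouse 5 was not, with a log2 fold change of 1.76 (standard error 0.76, limma adjusted p = 0.298).

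Tnfrsf10b, the mouse death receptor for TRAIL, was at 55.2, 40.7 and 47.0 in sham mice 1, 2 and 3 and at 72.8, 65.0 and 82.0 in ON-CR mice 4, 5 and 6. Every ON-CR mouse was above every sham mouse, with a log2 fold change of 0.62 (standard error 0.26, limma adjusted p = 0.289). Its ligand TRAIL, encoded by Tnfsf10, was at 38.2, 59.3 and 33.8 in sham mice and at 74.8, 45.1 and 110.1 in ON-CR mice. ON-CR mouse 5 again lay among the sham mice, and the log2 fold change was 0.75 (limma adjusted p = 0.368). Tnfrsf21, also called DR6, is a death-domain receptor of neurons and oligodendrocyte lineage cells. Tnfrsf21 was at 532, 595 and 514 in sham mice and at 664, 777 and 746 in ON-CR mice. Here ON-CR mouse 5 was the highest of all, and the log2 fold change of 0.41 (standard error 0.13) did not pass (limma adjusted p = 0.145). The other death-domain receptors, Tnfrsf25 and Edar, were at 0 to 6.37 and at 0 to 18.9.

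Tnfrsf22 and Tnfrsf23 encode TRAIL receptors that lack a death domain and act as decoys. Tnfrsf22 was at 109, 99.6 and 90.3 in sham mice 1, 2 and 3 and at 55.6, 34.4 and 45.1 in ON-CR mice 4, 5 and 6. The groups were well apart, and the log2 fold change was -1.15 (standard error 0.27, limma adjusted p = 0.0582). It was called in 1 of 14 settings, a robust fit, and the adjusted p ran from 0.0454 there to 0.231 without sham mouse 2. Tnfrsf23 was at 27.4, 10.2 and 31.8 in sham mice and at 28.2, 35.9 and 46.3 in ON-CR mice, which overlapped (log2 fold change 0.76, limma adjusted p = 0.473). The log2 fold change of Tnfrsf23 was 0.28 without sham mouse 2 and 1.05 without sham mouse 3. The coding sequences of these neighbours on chromosome 7 were identical at 80.6% of 594 aligned positions, and their transcripts share an identical run of 306 bases. Neither had whole reads in every library, so the split of reads between them is uncertain. Their sum, which does not depend on it, was 137, 109.8 and 122 in sham mice and 83.8, 70.2 and 91.4 in ON-CR mice, again with no overlap.

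Tnfrsf11b encodes osteoprotegerin, a secreted decoy for RANKL and TRAIL. Tnfrsf11b was at 676, 379 and 471 in sham mice 1, 2 and 3 and at 253, 239 and 379 in ON-CR mice 4, 5 and 6. Sham mouse 2 and ON-CR mouse 6 were level, and the log2 fold change was -0.80 (standard error 0.24, limma adjusted p = 0.133). Tnfrsf11a, the signalling receptor RANK of the myeloid and osteoclast lineage, was at 33.6 to 55.2 in sham mice and at 94.7, 41.0 and 98.6 in ON-CR mice. Its log2 fold change of 0.66 did not pass (limma adjusted p = 0.447).

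Tnfrsf19, also called TROY, is a receptor of neural progenitors and glia. Tnfrsf19 was at 645, 658 and 574 in sham mice 1, 2 and 3 and at 519, 426 and 415 in ON-CR mice 4, 5 and 6. Every ON-CR mouse was below every sham mouse, with a log2 fold change of -0.47 (standard error 0.14, limma adjusted p = 0.130). Among 8 astrocyte markers, which summed to 220710 to 272480 in sham and 285090 to 316440 in ON-CR mice, 1 was lower and 0 were higher by the adjusted test. Their median log2 fold change was -0.03, with 4 above and 4 below 0, and Gfap alone accounted for the higher sum, at 99186 to 123410 in sham and 156460 to 202960 in ON-CR mice. Eda, the X-linked ectodysplasin gene whose receptor is Edar, was at 64.6 to 78.9 in sham and at 52.4 to 66.5 in ON-CR mice.

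Antigen-presenting cells and activated lymphocytes display costimulatory ligands to T cells. Tnfsf8, Tnfsf9 and Cd70 were higher in every ON-CR mouse than in any sham mouse, as were 10.5% of all genes, while Cd40lg, Tnfsf14, Tnfsf15 and Tnfsf18 overlapped between the groups. Tnfsf8, the CD30 ligand, was at 17.0, 17.7 and 21.6 in sham mice 1, 2 and 3 and at 58.8, 31.5 and 78.9 in ON-CR mice 4, 5 and 6. No ON-CR mouse overlapped the sham mice, and the log2 fold change was 1.45 (standard error 0.39, limma adjusted p = 0.0998). It passed with sample quality weights (adjusted p = 0.0488) and without ON-CR mouse 5 (0.0263), and over all 14 settings the adjusted p ran up to 0.357. Tnfrsf8, which encodes CD30, was at 9.55, 10.6 and 5.63 in sham mice and at 9.97, 22.0 and 11.4 in ON-CR mice, where the groups overlapped.

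Tnfsf9, the 4-1BB ligand, was at 28.7, 11.5 and 18.8 in sham mice 1, 2 and 3 and at 32.9, 50.5 and 69.6 in ON-CR mice 4, 5 and 6. The groups did not overlap, with a log2 fold change of 1.36 (standard error 0.43, limma adjusted p = 0.155), and the gene shares 192 exonic bases with Gm11110 on the other strand. Its receptor 4-1BB, encoded by Tnfrsf9, was at 6.37, 8.85 and 5.63 in sham mice and at 13.0, 9.44 and 81.0 in ON-CR mice. Although these did not overlap, most of the difference came from mouse 6, without which the log2 fold change of 1.54 was 0.62 (limma adjusted p = 0.343 and 0.685). Cd70, the ligand of CD27, was at 14.9, 3.54 and 9.39 in sham mice and at 18.9, 26.2 and 28.0 in ON-CR mice. All ON-CR mice were higher, with a log2 fold change of 1.47 (standard error 0.53, limma adjusted p = 0.216). That value was 0.97 without sham mouse 2 and 1.87 without sham mouse 1. Cd27, a receptor of T cells and memory B cells, was at 15.9, 15.1 and 35.7 in sham mice and at 52.8, 21.0 and 48.8 in ON-CR mice, where mouse 5 overlapped the sham mice (log2 fold change 0.85, limma adjusted p = 0.430).

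Tnfrsf4, the OX40 receptor of activated T cells, was at 0.885 to 6.57 in sham mice and at 7.98, 1.05 and 65.4 in ON-CR mice 4, 5 and 6. Tnfrsf18, the GITR receptor of regulatory and activated T cells, was at 9.52 to 27.1 in sham mice and at 27.8, 14.6 and 77.3 in ON-CR mice. Cd40, the receptor through which T cells activate antigen-presenting cells, was at 26.5 to 31.9 in sham mice and at 28.9, 11.5 and 59.2 in ON-CR mice. In all 3 the groups overlapped and mouse 6 was the highest of all mice. Without mouse 6 the log2 fold changes went from 1.79 to 0.47 for Tnfrsf4, from 0.71 to 0.08 for Tnfrsf18 and from -0.06 to -0.61 for Cd40, whose sign also turned with library size scaling (0.06), with sample quality weights (0.10), without ON-CR mouse 5 (0.52) and without sham mouse 3 (0.01). None of the 3 passed in any of the settings tried, in which the adjusted p was at least 0.127 (limma). The 10 T cell markers summed to 265, 333 and 749 in sham mice and to 587, 260 and 1776 in ON-CR mice, and none of the 10 was at 0 in any library. The adjusted test called 0 of 10, against 0.971% of all genes higher and 1.13% lower. All 10 log2 fold changes were above 0, as were 52.8% of all genes. Mouse 6 was thus the highest both in these receptors and in T cell markers, and the part of T cell content in the values was not tested.

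**Figure D5:**
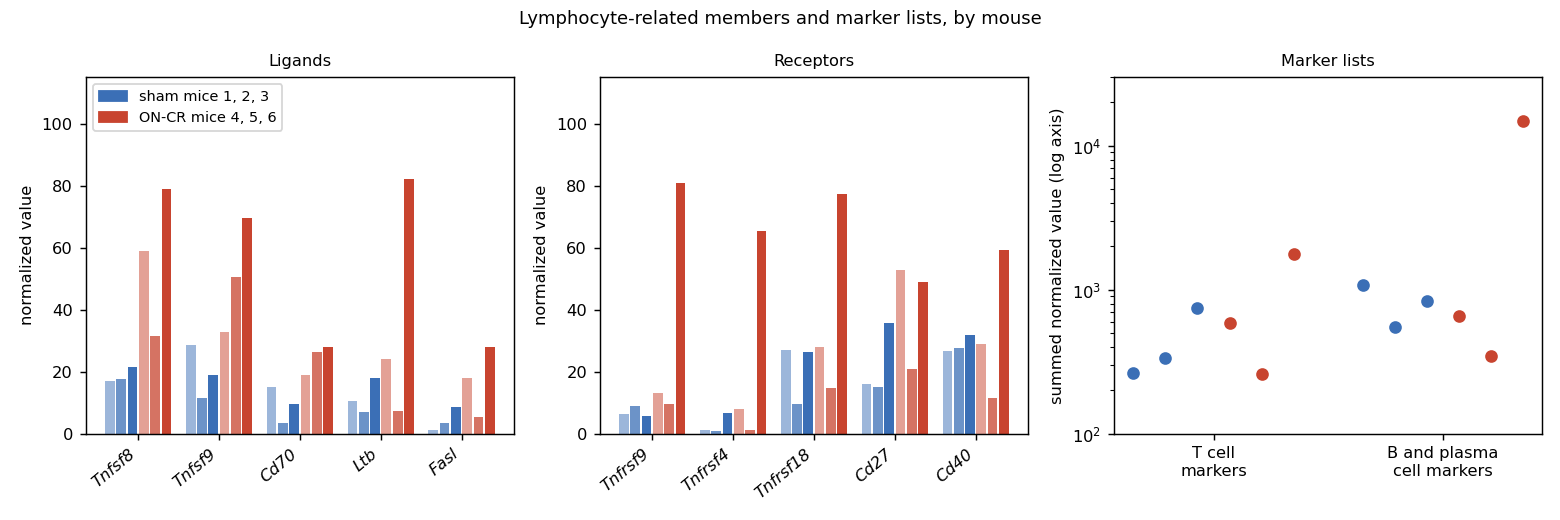
Normalized values of 5 ligands and 5 receptors of lymphocyte signalling, and summed values of the T cell and the B and plasma cell marker lists (right, points on a log axis), with 1 bar or point per mouse in the order of mice 1 to 6. Both marker sums and every gene shown except Cd27 were highest in ON-CR mouse 6. Tnfsf8, Tnfsf9, Cd70 and Tnfrsf9 were above all sham mice in each ON-CR mouse, as were 10.5% of all genes.

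The remaining members were low. Tnfrsf14, the HVEM receptor, was at 25.7 to 41.3 in sham and at 18.9 to 39.5 in ON-CR mice, and its ligand LIGHT, encoded by Tnfsf14, at 0.885 to 11.3 and at 4.15 to 7.98. Tnfrsf26, a receptor of the chromosome 7 cluster, was at 0.885 to 10.3 in sham and at 6.29 to 35.3 in ON-CR mice. Cd40lg, Tnfsf15 and Tnfsf18 were at 0 to 3.18, 0 to 9.74 and 0 to 2.66 in sham and at 0 to 4.15, 0 to 7.98 and 1.05 to 11.4 in ON-CR mice. In total 12 of the 42 members had 3 or fewer reads in at least 1 library, and 12 did not reach a value of 10 in 3 libraries.

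The same ON-CR mice were high and low in much of the family. ON-CR mouse 6 was the highest of its group in 30 of 42 members and ON-CR mouse 5 the lowest of its group in 31. The share of all genes in the same order is not given here, and whether the order is particular to the family was not tested. Over all genes, those called higher went from 250 to 39 without mouse 6 and to 489 without mouse 5. ON-CR mouse 5 was also the ON-CR mouse with the lowest microglial, T cell and B cell marker sums, at 15672, 260 and 345. Tnfrsf21, Tnfrsf8 and Edar were the members in which it was the highest of all 6 mice.

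Downstream genes were read from lists written with earlier results of these data known. Of 33 adaptors and proximal signalling genes, all in the table, 0 were called higher and 0 lower by the adjusted test, against 0.971% and 1.13% of all genes. At an unadjusted p at or under 0.05 by limma 3 of the 33 were higher and 3 lower, against 7.37% and 8.23% of all genes. The median log2 fold change of 0.04 was near that of all genes. Ripk3, the kinase of necroptosis, was at 22.3, 15.1 and 19.7 in sham mice 1, 2 and 3 and at 55.8, 25.2 and 51.9 in ON-CR mice 4, 5 and 6. These did not overlap, with a log2 fold change of 1.11 (limma adjusted p = 0.211). Fadd, the adaptor of Fas and TRAIL receptors, was at 333, 364 and 323 in sham mice and at 281, 192 and 208 in ON-CR mice. It too did not overlap, in the other direction, with a log2 fold change of -0.60 (limma adjusted p = 0.126). Otulin, a deubiquitinase that limits TNF receptor signalling, had a log2 fold change of 0.68 (limma adjusted p = 0.311).

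Of 18 genes known to respond to TNF, 16 were in the table. Birc3, Tnfaip3 and Traf1 are also among the adaptors and proximal signalling genes. By the adjusted test 3 were called higher and 0 lower, against 0.971% and 1.13% of all genes. At an unadjusted p at or under 0.05 by limma 7 were higher and 2 lower, against 7.37% and 8.23% of all genes. The median log2 fold change was 0.53, against 0.03 over all genes. Vcam1, the endothelial and astrocytic adhesion molecule, was at 1715, 1481 and 1756 in sham mice 1, 2 and 3 and at 2516, 2729 and 3537 in ON-CR mice 4, 5 and 6. It rose by 0.81 on the log2 scale (limma adjusted p = 0.0207). Tnfaip2 was at 31.3, 30.4 and 36.6 in sham mice and at 134, 63.8 and 157 in ON-CR mice, and it rose by 1.73 (limma adjusted p = 0.0355). Cxcl10, a chemokine that attracts T cells and also answers to interferon, was at 173, 65.5 and 196 in sham mice and at 458, 352 and 812 in ON-CR mice, and it rose by 1.95 (limma adjusted p = 0.0407). Ccl2, a monocyte chemokine, had a log2 fold change of 1.75 with no overlap (limma adjusted p = 0.111). Sod2, the mitochondrial superoxide dismutase, was at 4189, 3359 and 3179.7 in sham mice and at 2449, 2978 and 2499 in ON-CR mice, so that every ON-CR mouse was below every sham mouse (log2 fold change -0.43, limma adjusted p = 0.149). Nfkbia, the NF-kB inhibitor that NF-kB itself induces, also lay lower but overlapped, at 5253 ± 1363 (SD, n = 3) in sham and 3582 ± 950 (SD, n = 3) after ON-CR (limma adjusted p = 0.268).

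Promoters were searched for a kappa-B-like motif, GGNNTTTCC on either strand, because NF-kB lies downstream of most of these receptors and several family genes are themselves known targets. In the 250 bases before the start, 5 of 36 RefSeq promoters of 32 members (13.9%) held it, against 1619 of 32851 of all promoters (4.93%). The 5 are shown with 10 bases on either side, on the strand of the gene in GRCm38.p6, with the motif in capitals.
Tnfrsf9: agagcagctgGGGATTTCCcaggaggccc
Tnfrsf25: tgagacccagGGAAAAGCCcctggctctg
Edar: cactccaaaaGGAAAAACCtcaatgcttt
Tnfrsf13b: aggtcgaaggGGAAAACCCaggaagtgtg
Ltb: aagggtgttcGGAAAGTCCccgggcaggg
They lie at chr4:150927947-150927975 and chr4:152115706-152115734 on the plus strand, chr10:58675876-58675904 on the minus strand, and chr11:61126685-61126713 and chr17:35194410-35194438 on the plus strand. Tnfrsf9 and Tnfrsf25 each have another RefSeq promoter that held no such motif. The Tnfrsf9 motif lies 42 to 34 bases before a RefSeq start inside the gene, which by GENCODE M21 begins at chr4:150914562. It reads in the direction of the gene, and the other 4 read on the opposite strand. Of these genes Tnfrsf9, Tnfrsf13b and Ltb had their highest value in ON-CR mouse 6, as did 24 of the 42 members. Tnfrsf25 and Edar had 3 or fewer reads in 3 and 4 of the 6 libraries. A match says nothing about binding, and Tnfrsf12a held no such letters in this window.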

How the data were processed

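RNA of optic nerves from 3 sham and 3 ON-CR mice, grouped by the sample labels, was sequenced in bulk. Per the study's methods, DRAGEN was used for alignment and quantification, the annotation was that of Ensembl for mm10, and gene counts were median-normalized in Partek Flow, version 10.0. What the authors deposited is therefore a normalized signal per gene, not raw counts, and no count test was run. The value of 1 read was taken from the most frequent low values, after which 64.3% to 66.6% of the values above 0 were whole reads (tolerance 0.01), and 31 of 42 members were whole in every library. Floors of 3 reads cover counting error only. Pairs of replicate libraries gave a chi-square of 15.1 to 42.6 per degree of freedom, more than sampling noise.

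The two-sided test was limma's (3.58.1, R 4.3.3) on log2(value + 1), using a trend of variance on mean. p-values were adjusted by Benjamini-Hochberg over 25755 genes, and genes were called at an adjusted p at or under 0.05. All adjusted p values are from this fit unless a setting is named. Fold changes on this scale understate those of low genes. Each p-value sets a difference against the spread between 3 mice per group, with that spread drawn toward the trend over all genes. An exact permutation test could not go below 0.1. Members and lists were chosen with earlier results of these data known.

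Values by mouse were given for members with an adjusted or unadjusted p at or under 0.05, for members with a mean of at least 10 whose groups did not overlap, for their ligand or receptor partners and for Tnf with its receptors. Nfkbia and Sod2, and the values by mouse of Tnfrsf4, Tnfrsf11a, Tnfrsf18, Cd40, Ltb and Ltbr, were chosen after their values were seen. Positions and exon lengths are from GENCODE M21 (GRCm38), matched by symbol for 42 of 42 members, and promoters from RefSeq (GRCm38.p6), matched for 32. The 14 alternatives covered the pseudocount, scaling, a filter on low values, robust and weighted fits, and leaving out each mouse. The Nf1 gene, at 385 in sham and 411 in ON-CR mice (limma adjusted p = 0.798), carries the deletion in both groups. A marker of the oligodendrocyte list is not reported here.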

Additional observations from a re-analysis of the deposited data

How the results depend on the processing

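With 1 member higher and 1 lower as reported, the count of lower members was 0 with a pseudocount of 2 and with upper-quartile, library size or TMM scaling, and 2 in a robust fit, which added Tnfrsf22. The count of higher members was 2 with sample quality weights, which added Tnfsf8. Leaving out 1 mouse gave 0 to 2 higher (2 without ON-CR mouse 5, 0 without sham mouse 1, 2 or 3 or ON-CR mouse 6) and 0 lower each time, while the genes called over the whole table ran from 39 to 489 higher and from 28 to 365 lower. A pseudocount of 0.5 and a filter that kept 30 members and 19631 genes gave 1 and 1. Tnfrsf12a was called in 10 of 14 settings and Tnfsfm13 in 4 of 14, each in 1 direction throughout, and for the changed calls the cause was not tested. No paired analysis was possible because the mice carry different numbers in the 2 groups. Depth limits the 12 members with 3 or fewer reads in at least 1 library, Tnf among them.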
